A study of Mus musculus with 12 samples.

Results

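The USP family of deubiquitinases was followed on microarrays of mouse embryonic stem cells given 4-hydroxytamoxifen (4OHT), the proteasome inhibitor MG132, or both. Its members were taken as all genes whose current mouse symbol is Usp followed by a number, with Usp14 left out, which gave 46 genes on 82 of the 56605 probes. Of these, 43 were measured well above background on every array of at least 1 group and were tested among 26836 genes in all. The rule used no measured value. Usp18, which removes the ubiquitin-like protein Isg15, and the mainly germ cell genes Usp26 and Usp29 did not pass: Usp18 was above background on 1 of 3 4OHT arrays and 1 of 3 MG132 arrays, Usp29 on 1 MG132 array and Usp26 on none.

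The cells were embryonic stem cells, pluripotent cells of the early embryo, in medium with leukaemia inhibitory factor (LIF) and 250 nM PD173074, which blocks FGF receptors, in all groups. There were 4 groups with 3 arrays each: 250 nM 4OHT for 6 h; 1 µM MG132 for 30 min and a further 6 h; MG132 at the same dose for 30 min followed by MG132 with 4OHT for 6 h (MG132+4OHT); and untreated cells, titled 0 h. 4OHT is the active form of tamoxifen, used to switch on proteins fused to an oestrogen receptor domain; the labels name no such fusion, no line and no vehicle, and no untreated cells at 6 h were among the arrays, so time and compound cannot be told apart against untreated cells. The series' title names the proteasome and the kinase Erk.

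USP enzymes are cysteine proteases that cut ubiquitin from proteins. They can spare a target from the proteasome, recycle ubiquitin from chains, or reverse the ubiquitin marks on histones H2A and H2B that help to set transcription in stem cells. Several work only with a partner, such as Wdr48 for Usp1, Usp12 and Usp46, or the SAGA coactivator complex for Usp22.

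Values are given as log2 levels: the log2 of a probe's processed intensity minus the 75th percentile of its array, so that a level of 0 is that percentile. Levels are compared between arrays for 1 gene and not between genes. A gene was called when its adjusted p from limma was below 0.05 after Benjamini-Hochberg adjustment over all 26836 genes, and changes are log2 differences of group means ± standard error (SE) from that fit. With 3 arrays against 3, an exact permutation test of a single gene cannot give a p below 0.1. Precision is set by how few arrays there are.

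Some features of the arrays touch every result. The untreated and 4OHT arrays and MG132 replicates 1 and 2 lay on slide 1. MG132 replicate 3 and the MG132+4OHT arrays lay on slide 2, so MG132 replicate 3 alone ties the slides together. A term for slide in the fit therefore rests on that array against MG132 replicates 1 and 2. Without a replicate term, slide and replicate 3 cannot be told apart in such a fit. Replicates varied most under 4OHT (residual SD 0.393 to 0.446, against 0.192 to 0.252 in untreated cells). All 8 embryonic stem cell markers were above background on all 12 arrays, but their summed level on a linear scale was 862 to 887 under 4OHT, 515 to 536 under MG132, 491 to 567 under MG132+4OHT and 854 to 906 in untreated cells. That sum is mostly Dppa5a (mean level 9.09 with 4OHT and 9.05 in untreated cells). With 4OHT 4 of the 8 were called, 2 higher and 2 lower, the lower being Nanog (1.58 with 4OHT, 3.99 in untreated cells) and Esrrb (5.56 and 6.55), and all 8 were called lower with MG132 and with MG132+4OHT. Of 7 fibroblast and feeder markers, Lum was above background on no array, and their summed level was 17.4 to 27.5, 3.62 to 3.92, 4.30 to 5.59 and 1.55 to 2.03 in the same order. Thy1 carried that sum (4.38 with 4OHT, 0.65 in untreated cells) and was the only one of the 4 tested to be called with 4OHT. Col1a1 (-5.10 and -4.82) and Dcn (-5.88 and -5.22), each above background on 0 of 3 4OHT arrays, were lower in the means. Col1a2 (-3.40 and -4.08), Col3a1 (-6.95 and -7.72), Postn (-5.26 and -6.13) and Lum (-6.93 and -7.83) were higher, and of these only Col1a2 was above background on all 12 arrays. Of the 4 tested, 2 were called with MG132 and 2 with MG132+4OHT, all higher. Primitive endoderm markers summed to 19.5 to 24.1, 14.3 to 18.9, 21.7 to 27.7 and 12.9 to 17.5. Most came from Lamb1 (4.33 with 4OHT, 3.59 in untreated cells), the only one of 8 called with 4OHT. Gata4, Sox7, Dab2, Pdgfra and Col4a1 had lower means there, and Gata6 and Sox17 higher ones. With replicate 3 set against replicates 1 and 2 over all groups, a comparison added after seeing the data, 6 of 43 members were called (10.1% of all genes). The part of these shifts in the results below was not tested, and in bulk RNA fewer cells of a type and less RNA per cell cannot be told apart.

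The promoters of 4 genes on which the results turn are shown: Usp46 and Usp4, which were lower in every treatment, Usp12, the close relative of Usp46 that was higher with 4OHT, and Usp2, whose response to 4OHT depended on MG132. Each run is the 250 bases before the RefSeq start of the gene on GRCm38.p6 (Usp46 chr5:74068412-74068661, minus strand; Usp4 chr9:108347581-108347830, plus strand; Usp12 chr5:146794957-146795206, minus strand; Usp2 chr9:44084670-44084919, plus strand). Capitals mark GC boxes, read as GGGCGG on either strand (CCGCCC).
Usp46: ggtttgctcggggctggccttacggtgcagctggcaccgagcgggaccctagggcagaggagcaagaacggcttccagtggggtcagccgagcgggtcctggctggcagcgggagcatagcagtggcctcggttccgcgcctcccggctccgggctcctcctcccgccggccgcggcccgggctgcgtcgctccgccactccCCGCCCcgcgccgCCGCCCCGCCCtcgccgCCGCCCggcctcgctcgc
Usp4: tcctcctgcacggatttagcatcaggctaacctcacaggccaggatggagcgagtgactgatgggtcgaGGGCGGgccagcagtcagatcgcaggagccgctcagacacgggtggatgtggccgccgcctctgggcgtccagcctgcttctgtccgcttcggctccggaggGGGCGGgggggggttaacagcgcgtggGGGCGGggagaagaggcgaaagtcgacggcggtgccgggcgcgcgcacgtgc
Usp12: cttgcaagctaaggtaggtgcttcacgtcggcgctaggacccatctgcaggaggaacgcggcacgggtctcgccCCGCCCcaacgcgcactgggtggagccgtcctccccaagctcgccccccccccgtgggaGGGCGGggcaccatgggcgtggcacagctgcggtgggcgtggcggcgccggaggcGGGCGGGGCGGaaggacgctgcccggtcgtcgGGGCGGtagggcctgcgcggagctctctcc
Usp2: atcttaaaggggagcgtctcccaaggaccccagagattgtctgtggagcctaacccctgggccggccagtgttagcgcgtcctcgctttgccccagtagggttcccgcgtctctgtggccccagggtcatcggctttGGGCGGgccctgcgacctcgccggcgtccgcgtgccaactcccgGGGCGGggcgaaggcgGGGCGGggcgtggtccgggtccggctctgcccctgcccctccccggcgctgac

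GC boxes, the letters to which Sp1-type factors bind, occurred 4 times in the Usp46 window, 3 times for Usp4, 5 times for Usp12 and 3 times for Usp2, counting overlapping copies. RefSeq promoter sequences were matched for 36 of the 46 members. A GC box was present in 24 of them (66.7%), against 32.7% of all 32851 promoters of the same length. Among the members with a promoter, it was found in 4 of 7 that were called higher with 4OHT and in 5 of 7 that were called lower. The E-box CACGTG, which reads the same on both strands, was present in 3 members (8.33%, against 6.02% of all promoters), and CCGGAAG, the core of ETS factor sites, read also as CTTCCGG, in 7 (19.4% against 6.91%): Usp11, Usp16, Usp24, Usp30, Usp36, Usp38 and Usp8. These 3 motifs do not contain one another. The shares over all promoters were not limited to the genes tested here, and no share over the tested genes was worked out. They therefore do not show how far the family differs from other expressed genes. A match describes the letters only.

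The share of the family called was near that of all genes, above it with 4OHT and below it with MG132, and members moved both ways. With 4OHT against untreated cells, 16 of 43 members were called (37.2%, against 28.5% of all genes), 8 higher and 8 lower (14.7% and 13.8% of all genes). With MG132 against untreated cells, 15 were called (34.9% against 43.0%), 6 higher and 9 lower (24.5% and 18.4%), and with MG132+4OHT against untreated cells 23 (53.5% against 55.6%), 10 higher and 13 lower (33.2% and 22.4%). All arrays of one group lay apart from all arrays of the other for 22 of 43 members with 4OHT (41.1% of all genes), 26 with MG132 (59.6%) and 33 with MG132+4OHT (72.0%), each against untreated cells, for 18 with MG132+4OHT against MG132 (49.9%) and for 20 against 4OHT (57.4%). The median change over the 43 members was -0.0024, -0.091 and -0.028 in these comparisons, against 0.046, 0.083 and 0.19 over all genes. Genes with a symbol, which are a closer match to the family than probes known only by accession, were called at 36%, 46.1% and 59.3%. The split by direction moved with the scaling of the arrays: with each array centred on its median it was 6 higher and 10 lower for 4OHT, 1 and 22 for MG132 and 3 and 20 for MG132+4OHT, where the medians over all genes were -0.15, -0.28 and -0.23. Quantile normalization gave 6 higher and 10 lower for 4OHT, and normexp background correction 14 higher and 12 lower for MG132+4OHT. Every member called in these comparisons kept its sign under the 3 scalings, except Usp3, Usp16 and Usp30, which turned round with MG132+4OHT under median centring. That centring kept 14 of 16 calls for 4OHT, 10 of 15 for MG132 and 16 of 23 for MG132+4OHT. The MG132 rises of Usp3, Usp20, Usp30, Usp31 and Usp44 were not called under it (0.07, 0.57, 0.18, 0.05 and 0.30, adjusted p = 0.69, 0.088, 0.18, 0.77 and 0.19). Nor were the MG132+4OHT rises of Usp12, Usp25, Usp31 and Usp34 (0.20, 0.63, 0.31 and 0.32, adjusted p = 0.17, 0.072, 0.051 and 0.24), while falls grew, as for Usp5 (-0.69), Usp22 (-0.62) and Usp21 (-0.84) with MG132. With only the arrays compared in the fit, the 4OHT calls of Usp4, Usp15, Usp21, Usp22 and Usp25 were lost (adjusted p from 0.063 to 0.15).

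**Figure D1:**
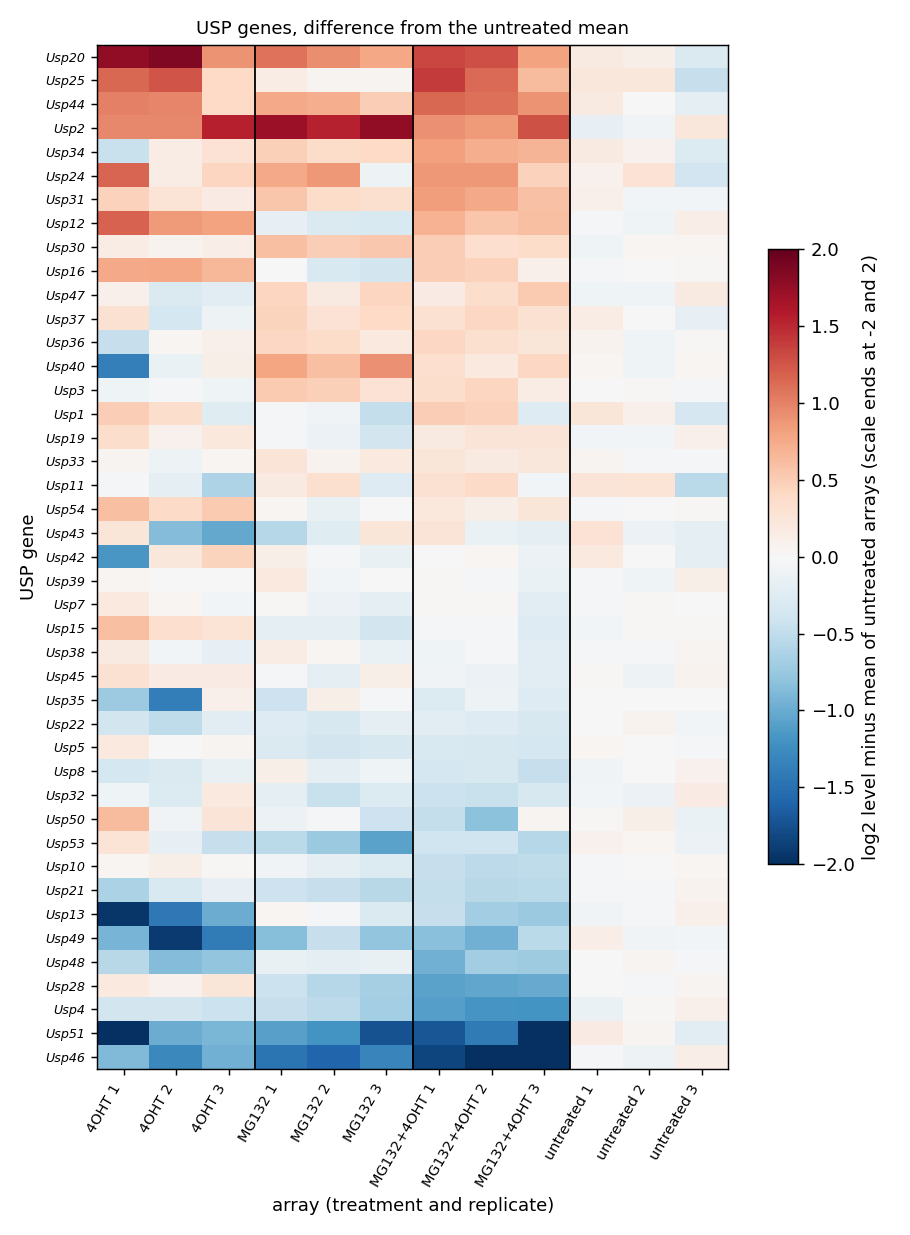
Heat map of the 43 USP genes (rows, ordered by the change with MG132+4OHT) on the 12 arrays (columns, by treatment and replicate). Colour is the log2 level minus the mean of the untreated arrays, with red higher and blue lower; Usp20 is at the top (1.15 with MG132+4OHT) and Usp46 at the bottom (-2.01).

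**Figure D2:**
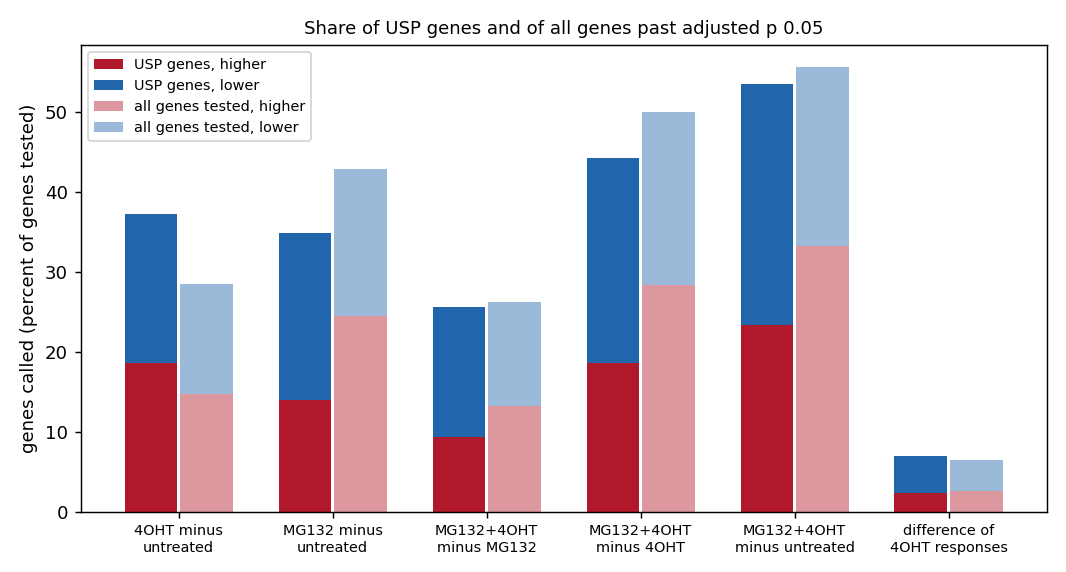
Percent of the 43 USP genes (full colour, left bar of each pair) and of all 26836 genes tested (pale, right bar) that were called in each comparison, split into higher (red) and lower (blue). The family stood at 37.2% against 28.5% for 4OHT and at 53.5% against 55.6% for MG132+4OHT, each against untreated cells.

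Among the histone deubiquitinases, Usp16 and Usp44 rose with 4OHT while Usp49, Usp51, Usp21 and Usp22 fell. Usp16, which takes ubiquitin from H2A, had levels of 2.66, 2.67 and 2.56 on the 4OHT arrays, 1.89, 1.61 and 1.53 on the MG132 arrays, 2.39, 2.37 and 2.01 on the MG132+4OHT arrays, and 1.88, 1.90 and 1.93 in untreated cells. The 4OHT levels lay above all untreated ones (0.73 ± 0.13, adjusted p = 0.0017), and with MG132 present 4OHT again gave a higher level (0.58 ± 0.13 over MG132 alone, adjusted p = 0.0081). Its second probe moved alike with 4OHT (0.73, adjusted p = 0.00056) and was called lower with MG132 (-0.41, adjusted p = 0.0099), where the first probe was not (-0.23, adjusted p = 0.17).

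Usp44, which removes ubiquitin from H2B and acts in the mitotic checkpoint, had levels of 1.46, 1.42 and 0.84 with 4OHT, 1.21, 1.18 and 0.94 with MG132, 1.60, 1.54 and 1.34 with MG132+4OHT, and 0.64, 0.45 and 0.26 in untreated cells. No treated array fell into the untreated range. It rose with 4OHT (0.79 ± 0.17, adjusted p = 0.0066), with MG132 (0.66 ± 0.17, adjusted p = 0.012) and with MG132+4OHT (1.05 ± 0.17, adjusted p = 0.00057), the MG132 call being lost under median centring. Its second probe was called higher with 4OHT (0.83) and with MG132+4OHT (0.81) but not with MG132 alone (0.23, adjusted p = 0.13).

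Usp49, a relative of Usp44 that also acts on H2B, went the other way. Its levels were -3.93, -4.92 and -4.41 with 4OHT, -3.86, -3.46 and -3.80 with MG132, -3.84, -3.97 and -3.55 with MG132+4OHT, and -2.88, -3.09 and -3.07 in untreated cells. It was dim, above background on 2 of 3 4OHT arrays and on all others. It fell with 4OHT (-1.41 ± 0.23, adjusted p = 0.0011) and less far with MG132 (-0.70 ± 0.23, adjusted p = 0.029), a call that was lost without any 1 of the untreated arrays or of MG132 replicates 1 and 3 (-0.62 to -0.74, adjusted p up to 0.09). With MG132+4OHT the change was -0.78 ± 0.23 (adjusted p = 0.014), and -0.68 (adjusted p = 0.052) without MG132+4OHT replicate 2. All 3 calls were lost under normexp background correction, at -0.21 with 4OHT (adjusted p = 0.18), -0.20 with MG132 and -0.12 with MG132+4OHT.

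Usp51, a relative of Usp22, had levels of -3.10, -2.09 and -2.01 with 4OHT, -2.18, -2.29 and -2.83 with MG132, -2.80, -2.51 and -3.17 with MG132+4OHT, and -0.93, -1.05 and -1.30 in untreated cells. All 9 treated arrays lay below all untreated ones. Changes were -1.31 ± 0.30 with 4OHT (adjusted p = 0.0079), -1.34 ± 0.30 with MG132 (adjusted p = 0.0047) and -1.74 ± 0.30 with MG132+4OHT (adjusted p = 7e-04), the last at -1.14 (adjusted p = 0.14) with slide as a block in the fit; normexp gave -0.76, -0.84 and -0.95. Usp22 itself, the H2B deubiquitinase of SAGA, moved little: its levels were 3.41, 3.27 and 3.54 with 4OHT, 3.52, 3.45 and 3.57 with MG132, 3.55, 3.51 and 3.45 with MG132+4OHT, and 3.77, 3.84 and 3.71 in untreated cells. The changes were -0.37 with 4OHT, -0.26 with MG132 and -0.27 with MG132+4OHT (adjusted p = 0.013, 0.042 and 0.028). The first call was lost without untreated replicate 2 (-0.33, adjusted p = 0.057), the second without any 1 of 9 arrays, all but those of 4OHT (adjusted p up to 0.14), and the third without any 1 of 5 arrays, untreated replicates 1 and 2 and the MG132+4OHT arrays (adjusted p up to 0.099). Quantile normalization ended the calls with MG132 (-0.14) and with MG132+4OHT (-0.23). A second Usp22 probe was called lower with 4OHT (-0.29), with MG132 (-0.36) and with MG132+4OHT (-0.48).

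Usp21, an H2A deubiquitinase, was lower with 4OHT (-0.37 ± 0.12, adjusted p = 0.037), with MG132 (-0.47 ± 0.12, adjusted p = 0.0078) and with MG132+4OHT (-0.52 ± 0.12, adjusted p = 0.0034). The 4OHT call was lost without any 1 of 10 arrays, all but 4OHT replicate 3 and MG132 replicate 3 (adjusted p up to 0.1), and the change was -0.24 without 4OHT replicate 1, the lowest array. A second Usp21 probe fell in all 3 comparisons (-0.45, -0.79 and -0.83, adjusted p = 0.0039, 8.2e-05 and 3.3e-05). Usp3, which acts on H2A and H2B, rose with MG132 (0.43 ± 0.10, adjusted p = 0.0053), but stood at 0.07 (adjusted p = 0.69) under median centring. Of the 8 histone enzymes, Usp36 was called in none of the comparisons with untreated cells.

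Among the enzymes of DNA repair and checkpoints, Usp46 showed the largest fall of the family with MG132 and with MG132+4OHT. This rank holds for the probe that stood for the gene. Usp12, the closest relative of Usp46, rose with 4OHT. Both are switched on by Wdr48 and Wdr20. Usp46 had levels of -0.31, -0.72 and -0.39 with 4OHT, -0.88, -1.01 and -0.75 with MG132, -1.26, -1.53 and -1.52 with MG132+4OHT, and 0.55, 0.48 and 0.70 in untreated cells. The groups did not overlap and stood in that order, from untreated down to MG132+4OHT, as the plot of levels by array shows. The changes against untreated cells were -1.05 ± 0.13 with 4OHT (adjusted p = 0.00026), -1.45 ± 0.13 with MG132 (adjusted p = 2.2e-05) and -2.01 ± 0.13 with MG132+4OHT (adjusted p = 1.7e-06), the last a 4.04-fold lower level.

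MG132+4OHT was also tested against each compound alone, and MG132 was not tested against 4OHT. Usp46 was lower with MG132+4OHT than with MG132 (-0.56 ± 0.13, adjusted p = 0.013), a call that was lost without MG132+4OHT replicate 2 (-0.51, adjusted p = 0.053), and lower than with 4OHT (-0.97 ± 0.13, adjusted p = 0.00022). With slide as a block these were -0.69 (adjusted p = 0.049) and -1.16 (adjusted p = 0.011), and the change against untreated cells was -2.20 (adjusted p = 0.00048). The second Usp46 probe was called lower in each of these comparisons (-1.35 with 4OHT, -0.94 with MG132, -1.58 with MG132+4OHT, -0.64 against MG132) except MG132+4OHT against 4OHT (-0.23, adjusted p = 0.22). On that probe the fall was larger with 4OHT than with MG132, so the order of the single compounds differed between probes. Its falls with MG132 and with MG132+4OHT were also smaller than those of Usp51 (-1.34 and -1.74).

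Usp12 had levels of 2.74, 2.40 and 2.37 with 4OHT, 1.39, 1.26 and 1.26 with MG132, 2.26, 2.12 and 2.16 with MG132+4OHT, and 1.51, 1.47 and 1.70 in untreated cells. Both groups given 4OHT lay above both groups without it. The rise with 4OHT was 0.87 ± 0.12 (adjusted p = 6e-04) with MG132 present and 0.95 ± 0.12 (adjusted p = 2e-04) without it, a difference of -0.07 that did not pass (95% interval -0.43 to 0.29). Within slide 2 alone, where 1 MG132 array met the 3 MG132+4OHT arrays, the rise was 0.92 (adjusted p = 0.037), the lone MG132 array being assumed to vary like the others. MG132 alone left it at -0.25 ± 0.12 (adjusted p = 0.11). A second probe, with a larger SE (0.38), read 0.71 (adjusted p = 0.19) with 4OHT and 1.25 (adjusted p = 0.035) with 4OHT on top of MG132.

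Usp28, which stabilises Myc and binds the repair protein 53BP1, had levels of 3.37, 3.25 and 3.41 with 4OHT, 2.74, 2.59 and 2.51 with MG132, 2.09, 2.13 and 2.16 with MG132+4OHT, and 3.16, 3.12 and 3.22 in untreated cells. It fell with MG132 (-0.55 ± 0.09, adjusted p = 0.00067) and further with MG132+4OHT (-1.04 ± 0.09, adjusted p = 7.5e-06; -0.88, adjusted p = 0.0035, with slide as a block). 4OHT alone left it at 0.17 ± 0.09 (adjusted p = 0.18), so that MG132+4OHT stood 1.21 ± 0.09 below 4OHT (a change of -1.21, adjusted p = 3.9e-06).

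Usp48, a nuclear enzyme, had levels of 2.22, 1.93 and 1.99 with 4OHT, 2.63, 2.59 and 2.64 with MG132, 1.83, 2.09 and 2.07 with MG132+4OHT, and 2.78, 2.84 and 2.75 in untreated cells. It was lower wherever 4OHT was given: -0.74 ± 0.10 with 4OHT (adjusted p = 0.00051), -0.79 ± 0.10 with MG132+4OHT (adjusted p = 0.00013) and -0.62 ± 0.10 for MG132+4OHT against MG132 (adjusted p = 0.0022). MG132 alone gave -0.17 (adjusted p = 0.23). Usp7, which stabilises both Mdm2 and p53, held levels of 4.72 to 5.12 on all 12 arrays and Usp1, the Fancd2 enzyme, was likewise called in no comparison. For Usp7 the change with MG132+4OHT was -0.06, with a 95% interval from -0.29 to 0.17. A second Usp7 probe was called higher with MG132+4OHT against 4OHT (0.62).

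**Figure D3:**
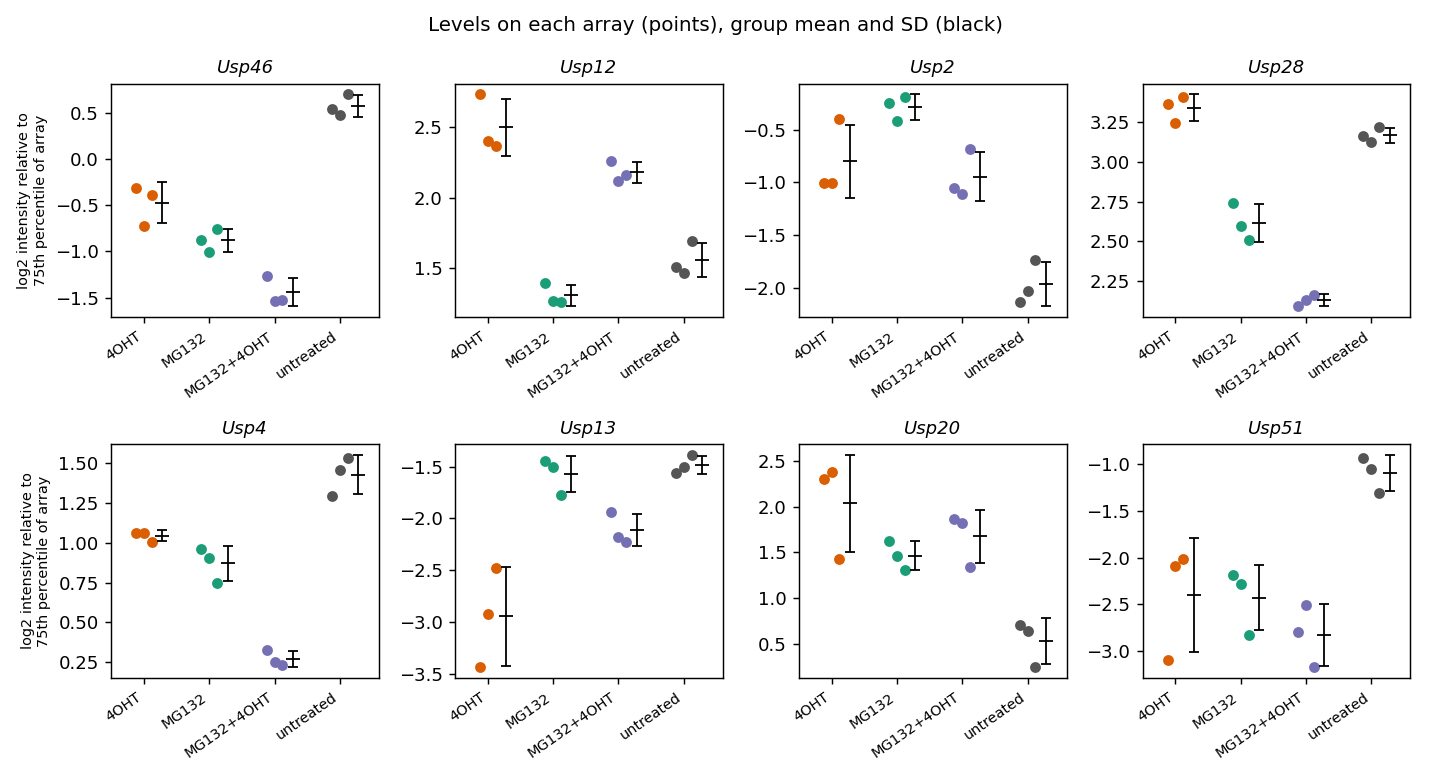
Log2 level (intensity relative to the 75th percentile of the array) of 8 USP genes on each array by treatment, with group mean and SD in black (n = 3 arrays per group). Usp46 is lowest with MG132+4OHT (mean -1.44), Usp12 is high in both groups given 4OHT, and Usp2 is highest with MG132 alone.

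Of the enzymes tied to p53 and Mdm2, Usp2 rose in every treatment. Usp2 deubiquitinates Mdm2 and cyclin D1 and is a clock-controlled gene in several tissues. Its levels were -1.0, -1.0 and -0.40 with 4OHT, -0.24, -0.42 and -0.19 with MG132, -1.05, -1.11 and -0.68 with MG132+4OHT, and -2.13, -2.03 and -1.73 in untreated cells. All treated arrays lay above all untreated ones, and replicate 3 was the highest in each group. The rise was 1.16 ± 0.19 with 4OHT (adjusted p = 0.0011), 1.68 ± 0.19 with MG132 (adjusted p = 7.3e-05, 3.20-fold) and 1.02 ± 0.19 with MG132+4OHT (adjusted p = 0.0011; 0.87, adjusted p = 0.1, with slide as a block). A second probe read 0.74 (adjusted p = 0.054), 1.37 (adjusted p = 0.0019) and 0.79 (adjusted p = 0.025).

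Usp5, which takes free ubiquitin chains apart and so feeds the ubiquitin pool, had levels of 5.21, 5.03 and 5.07 with 4OHT, 4.73, 4.64 and 4.69 with MG132, 4.71, 4.69 and 4.66 with MG132+4OHT, and 5.06, 5.0 and 4.98 in untreated cells. Both groups given MG132 lay below both groups without it. Its change was -0.33 ± 0.08 with MG132 (adjusted p = 0.0071), -0.33 ± 0.08 with MG132+4OHT (adjusted p = 0.0055) and 0.09 ± 0.08 with 4OHT (adjusted p = 0.46), the MG132 value being -0.17 (adjusted p = 0.18) under quantile normalization. Usp10, a p53 deubiquitinase that works with G3bp1, fell with MG132+4OHT (-0.49 ± 0.08, adjusted p = 0.00051; -0.36, adjusted p = 0.087, with slide as a block), while MG132 alone gave -0.18 (adjusted p = 0.095) and 4OHT alone 0.06 (adjusted p = 0.62).

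Usp13, a relative of Usp5, was low with 4OHT alone. Its levels were -3.43, -2.92 and -2.48 with 4OHT, -1.44, -1.51 and -1.77 with MG132, -1.94, -2.18 and -2.22 with MG132+4OHT, and -1.56, -1.50 and -1.39 in untreated cells. The 4OHT arrays were widely spread but lay below all others. The change was -1.46 ± 0.21 with 4OHT (adjusted p = 0.00052), -0.09 ± 0.21 with MG132 (adjusted p = 0.76) and -0.63 ± 0.21 with MG132+4OHT (adjusted p = 0.025), the last lost without any 1 of untreated replicates 2 and 3 or MG132+4OHT replicates 2 and 3 (-0.58 to -0.64, adjusted p up to 0.075). A second probe also fell with 4OHT (-0.72, adjusted p = 0.0025), and under normexp the first gave -0.71.

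Among the enzymes of growth factor, TGF-beta and Wnt signalling, Usp4 fell in every treatment and Usp25 rose with 4OHT. Usp4, which acts on the TGF-beta receptor, had levels of 1.06, 1.06 and 1.00 with 4OHT, 0.96, 0.90 and 0.75 with MG132, 0.32, 0.25 and 0.23 with MG132+4OHT, and 1.29, 1.46 and 1.54 in untreated cells. As for Usp46, the groups did not overlap and stood lowest with both compounds. The change was -0.38 ± 0.09 with 4OHT (adjusted p = 0.011), -0.56 ± 0.09 with MG132 (adjusted p = 0.00086) and -1.16 ± 0.09 with MG132+4OHT (adjusted p = 5.1e-06; -0.98, adjusted p = 0.0026, with slide as a block). Usp4 and Usp46 were the only members called in all 5 comparisons of groups.

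Usp25, which acts on the tankyrases of the Wnt pathway, had levels of -1.79, -1.68 and -2.53 with 4OHT, -2.78, -2.88 and -2.88 with MG132, -1.54, -1.81 and -2.30 with MG132+4OHT, and -2.71, -2.71 and -3.39 in untreated cells. Replicate 3 was the lowest in each group, though barely so with MG132. The rise with 4OHT was 0.96 ± 0.27 (adjusted p = 0.026) with MG132 present and 0.94 ± 0.27 (adjusted p = 0.026) without it. The call without MG132 was lost on leaving out untreated replicate 3 (0.71, adjusted p = 0.09), 4OHT replicate 1 (0.83, adjusted p = 0.075) or 4OHT replicate 2 (0.78, adjusted p = 0.087), and under quantile normalization (0.75) or median centring (0.74), and the call with MG132 on leaving out any MG132 array or MG132+4OHT replicate 1 or 2 (0.79 to 1.00, adjusted p up to 0.097). Usp34, an axin deubiquitinase, was higher with MG132+4OHT (0.74 ± 0.18, adjusted p = 0.0059; 0.76, adjusted p = 0.14, with slide as a block).

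Of the enzymes on organelle membranes, Usp20, an endoplasmic reticulum enzyme that acts on the HMG-CoA reductase of cholesterol synthesis, showed the largest rise of the family with 4OHT. Its levels were 2.30, 2.39 and 1.43 with 4OHT, 1.62, 1.46 and 1.31 with MG132, 1.87, 1.82 and 1.34 with MG132+4OHT, and 0.70, 0.64 and 0.24 in untreated cells. All treated arrays lay above all untreated ones, with replicate 3 lowest in each group. The rise was 1.51 ± 0.25 with 4OHT (adjusted p = 0.0014), 0.93 ± 0.25 with MG132 (adjusted p = 0.013) and 1.15 ± 0.25 with MG132+4OHT (adjusted p = 0.0033). Without untreated replicate 3 the MG132 value was 0.79 (adjusted p = 0.053), under median centring it was 0.57 (adjusted p = 0.088), and with slide as a block the MG132+4OHT value was 1.38 (adjusted p = 0.061).

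Usp30, which opposes mitophagy at the mitochondrial outer membrane, had levels of 1.31, 1.24 and 1.30 with 4OHT, 1.77, 1.67 and 1.71 with MG132, 1.66, 1.5 and 1.54 with MG132+4OHT, and 1.08, 1.20 and 1.21 in untreated cells. It rose with MG132 (0.55 ± 0.08, adjusted p = 0.00045), its highest group, but stood at 0.18 (adjusted p = 0.18) under median centring. Usp39, a splicing factor of the family that has lost catalytic activity, was called in no comparison on the probe that stood for it. Its change with MG132+4OHT was -0.05 (95% interval -0.26 to 0.16). Of its 3 probes, 1 was called lower with MG132+4OHT against untreated cells (values from -0.36 to -0.05). Against 4OHT, 2 were called lower (values from -0.37 to -0.06). Usp53 fell (-0.78 ± 0.19, adjusted p = 0.0072) and Usp31 rose (0.41 ± 0.11, adjusted p = 0.013) with MG132. Of 3 Usp53 probes tested, 1 was called with MG132 (values from -0.78 to -0.33). On slide 1 alone the Usp53 call was lost (adjusted p = 0.06). The Usp31 value was 0.38 (adjusted p = 0.05) without untreated replicate 2 and 0.34 (adjusted p = 0.054) without MG132 replicate 1. Under median centring it was 0.05. In all, 12 of 43 members were called in none of the 5 comparisons of groups on the probe that stood for the gene: Usp1, Usp7, Usp11, Usp24, Usp33, Usp35, Usp37, Usp38, Usp39, Usp40, Usp42 and Usp43. With every probe tested, Usp7, Usp39, Usp40 and Usp42 each had at least 1 probe called in some comparison.

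Slide bears most on the comparisons with MG132+4OHT. With slide as a fixed block, all 16 calls of 4OHT against untreated cells were kept. Both of those groups lay on slide 1, so the block could not shift their changes. Of the calls of MG132 against untreated cells 13 of 15 were kept, but of those of MG132+4OHT against untreated cells 8 of 23. Those 8 were Usp46, Usp4, Usp28, Usp48, Usp44, Usp31, Usp12 and Usp3, and all 23 kept their sign. Within slide 1, 14 of 16 calls and 11 of 15 calls were kept for 4OHT and for MG132.

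When 4OHT was added to MG132, 11 of 43 members were called against MG132 alone (25.6%, against 26.2% of all genes), 4 higher and 7 lower (13.2% and 13.0% of all genes). The 4 that rose were Usp25, Usp12, Usp16 and Usp19 (0.40 ± 0.11, adjusted p = 0.023), an enzyme anchored in the endoplasmic reticulum. Of 3 Usp19 probes 1 was called (values from 0.16 to 0.40). The Usp19 call was lost with probes averaged and under median centring. The 7 falls were those of Usp2 (-0.66 ± 0.19, adjusted p = 0.027), Usp48 (-0.62), Usp4 (-0.60 ± 0.09, adjusted p = 0.0014), Usp46 (-0.56), Usp28 (-0.49 ± 0.09, adjusted p = 0.0033), Usp10 (-0.31 ± 0.08, adjusted p = 0.018) and Usp8 (-0.33 ± 0.10, adjusted p = 0.039), which acts on growth factor receptors at endosomes. Leaving out any 1 of 5 arrays (MG132 replicates 2 and 3 or any MG132+4OHT array) ended the Usp19 call (adjusted p up to 0.073), and any 1 of 4 (MG132 replicates 1 and 3, MG132+4OHT replicates 1 and 2) that of Usp2 (adjusted p up to 0.095). The Usp10 call was lost without MG132 replicate 1 or 2 or MG132+4OHT replicate 2 or 3 (adjusted p up to 0.073). The Usp8 call was lost without any 1 of 8 arrays, which were untreated replicates 1 and 2, 4OHT replicate 2, MG132 replicates 1 and 3 and the MG132+4OHT arrays (adjusted p up to 0.14). With no filter on dim genes the calls of Usp25, Usp19, Usp2, Usp10 and Usp8 were lost (adjusted p up to 0.11). With slide as a block 6 of the 11 calls were kept (Usp12, Usp16, Usp19, Usp4, Usp46 and Usp48), and within slide 2 only that of Usp12.

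When MG132 was added to 4OHT, 19 members were called against 4OHT alone (44.2%, against 49.9% of all genes), 8 higher and 11 lower (28.3% and 21.6%); median centring gave 0 higher and 15 lower, and quantile normalization 10 higher and 9 lower. Usp13 was the largest rise (0.83 ± 0.21, adjusted p = 0.0076), but its second probe read 0.26 and was not called, and median centring ended the call. Next came Usp34 (0.74 ± 0.18, adjusted p = 0.0069), Usp49 (0.64 ± 0.23, adjusted p = 0.038), Usp47 (0.47 ± 0.14, adjusted p = 0.019), Usp36 (0.43 ± 0.14, adjusted p = 0.029) and Usp31 (0.43 ± 0.11, adjusted p = 0.0093). After Usp28 and Usp46, the largest falls were Usp4 (-0.77 ± 0.09, adjusted p = 8.8e-05), Usp50 (-0.68 ± 0.23, adjusted p = 0.032), Usp10 (-0.55 ± 0.08, adjusted p = 3e-04) and Usp15 (-0.51 ± 0.11, adjusted p = 0.0035). The Usp49 value was 0.39 (adjusted p = 0.13) without 4OHT replicate 2 and that of Usp36 was 0.26 (adjusted p = 0.055) without 4OHT replicate 1. Each of these calls was lost without any 1 of several arrays: 6 for Usp49, 3 for Usp36, 4 for Usp47 (adjusted p up to 0.074) and 4 for Usp50 (adjusted p up to 0.12), whose groups, like those of Usp49, overlapped. The Usp50 probe was above background on 2 of 3 MG132+4OHT arrays and 2 of 3 4OHT arrays, and under normexp its value was -0.17 and that of Usp49 was 0.08 (adjusted p = 0.65), neither called. With probes averaged, Usp15 gave -0.19 and was not called; of its 5 probes 2 were called lower and the values ran from -0.61 to 0.83. Usp36, a nucleolar enzyme, was the only member with probes called in opposite directions: of its 3 probes, 1 fell in this comparison (-0.52, adjusted p = 0.037), so its direction is uncertain. With slide as a block 5 of 19 calls were kept: Usp28, Usp46, Usp4, Usp45 and Usp3.

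The response to 4OHT with MG132 was compared with that without MG132 by testing the difference of the 2 responses, which rests on arrays that the responses do not share. It was called for 3 of 43 members (6.98%, against 6.51% of all genes): Usp2 and Usp28 below 0 (3.88% of all genes) and Usp49 above 0 (2.63%). Median centring gave 1 higher and 1 lower, and normexp background correction 0 higher and 3 lower. Usp2 fell when 4OHT was added to MG132 (-0.66) and rose with 4OHT alone (1.16), a difference of -1.82 ± 0.27 (adjusted p = 0.0038). That call held without each array in turn and with slide as a block (-1.92, adjusted p = 0.021). In the fit with slide, slide cannot be told apart from replicate 3, in which Usp2 was higher (0.37). A second Usp2 probe gave a difference of -1.32 (adjusted p = 0.063).

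For Usp28 the responses were -0.49 with MG132 and 0.17 without it, a difference of -0.66 ± 0.12 (adjusted p = 0.012; -0.56, adjusted p = 0.083, with slide as a block). For Usp49 they were -0.08 with MG132 and -1.41 without it, a difference of 1.33 ± 0.32 (adjusted p = 0.034; 1.43, adjusted p = 0.11, with slide as a block), and this call was lost without any 1 of 8 arrays: the untreated and MG132+4OHT arrays and MG132 replicates 1 and 3 (1.21 to 1.42, adjusted p up to 0.088) and under normexp (0.28, adjusted p = 0.37). The Usp28 difference was -0.53 (adjusted p = 0.092) under median centring. Usp20 and Usp13 did not pass (-1.30, adjusted p = 0.062, and 0.92, adjusted p = 0.099).

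**Figure D4:**
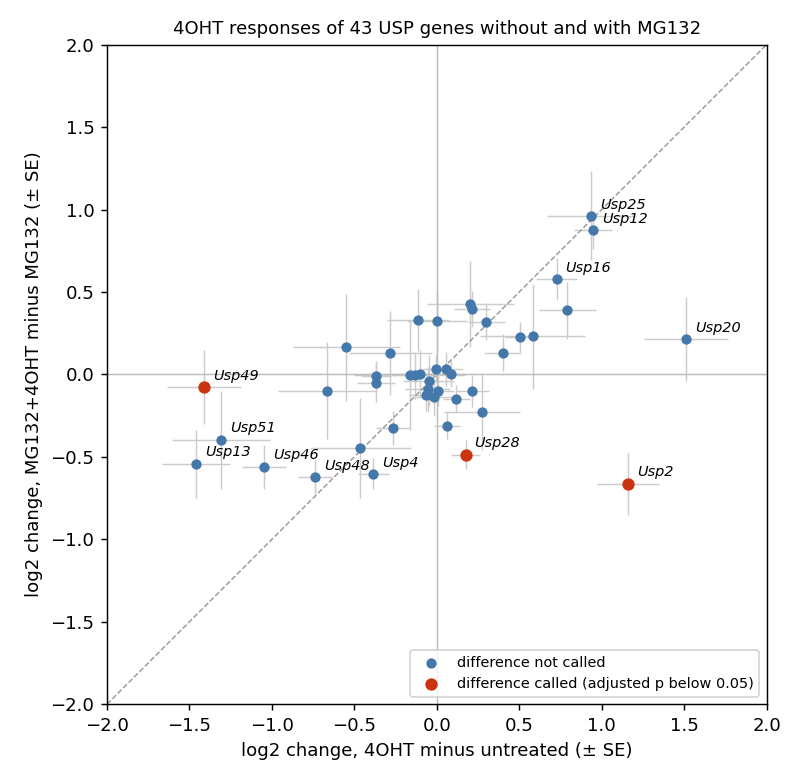
Log2 change with 4OHT in cells with MG132 (y axis) and in cells without MG132 (x axis) for the 43 USP genes, with bars of 1 SE and the dashed line of equal responses. The 3 genes with a called difference are red: Usp2 (-0.66 with MG132 and 1.16 without), Usp28 (-0.49 and 0.17) and Usp49 (-0.08 and -1.41).

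Close relatives within the family were set side by side for 7 pairs, chosen after their values were seen, so these are descriptions. With 4OHT, 3 pairs had both genes called in opposite directions (Usp12 up and Usp46 down, Usp44 up and Usp49 down, Usp15 up and Usp4 down) and 1 pair in the same direction (Usp22 and Usp51 down). With MG132+4OHT against untreated cells, 3 pairs were opposed (Usp12 and Usp46, Usp44 and Usp49, Usp25 up and Usp28 down) and 2 ran together (Usp5 and Usp13, Usp22 and Usp51, all down). With MG132 alone only Usp44 and Usp49 were opposed. The Usp15 rise of 0.40 ± 0.11 (adjusted p = 0.022) was lost without untreated replicate 1 (0.37, adjusted p = 0.076), untreated replicate 2 (0.41, adjusted p = 0.057) or 4OHT replicate 1 (0.30, adjusted p = 0.053). It was also lost under quantile normalization (0.31), median centring (0.20) and averaging of probes (0.09, adjusted p = 0.55): of 5 Usp15 probes 2 were called higher, and the values ran from -1.06 to 0.49. In the pair of Usp20 and Usp33, Usp33 was never called.

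**Figure D5:**
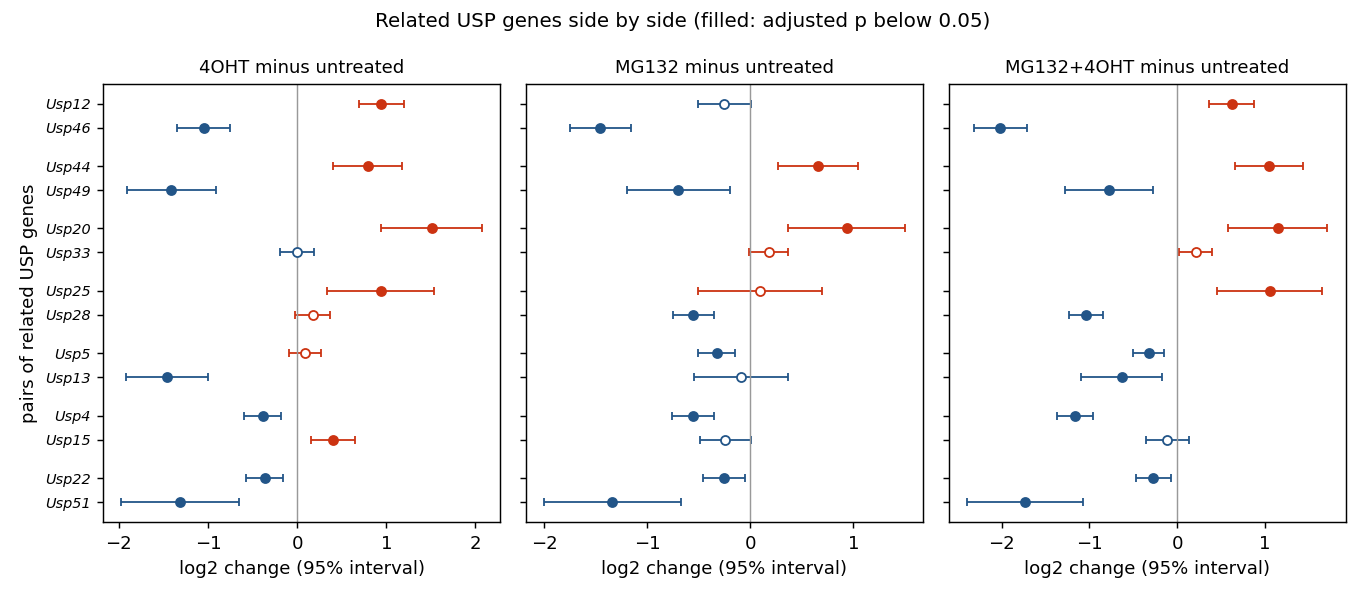
Log2 change (points, with 95% intervals from limma) of 7 pairs of related USP genes in 3 comparisons with untreated cells; filled points were called, red is above 0 and blue below. With MG132+4OHT, Usp12 lies at 0.62 and Usp46 at -2.01.

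The partners of these enzymes and the other genes of deubiquitinase families gave mixed directions. Of 17 cofactors, 6 were called with 4OHT (35.3%, against 28.5% of all genes; 4 higher, 2 lower), 4 with MG132 (23.5% against 43.0%; 2 and 2) and 6 with MG132+4OHT (35.3% against 55.6%; 5 and 1), each against untreated cells. Wdr48, the partner of Usp12 and Usp46, rose with 4OHT (0.27 ± 0.08, adjusted p = 0.035) and with MG132+4OHT (0.61 ± 0.08, adjusted p = 0.00018), and so did Dmwd, a relative of Wdr20, with MG132+4OHT (0.66 ± 0.08, adjusted p = 8.5e-05). Atxn7l3, the adaptor of Usp22 and Usp51 in SAGA, fell with MG132 (-0.44 ± 0.08, adjusted p = 0.0018), and Stat2, a partner of Usp18, fell with 4OHT (-0.88 ± 0.16, adjusted p = 0.0022). Usp9x, a USP gene whose symbol lies outside the rule, was called in no comparison.

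Of 45 genes of deubiquitinase families outside the rule, including other protease classes, 42 were tested. They were listed by protein family and not by shown activity on ubiquitin. They were called in 17 cases with 4OHT (40.5%, against 28.5% of all genes; 10 higher, 7 lower), 18 with MG132 (42.9% against 43.0%; 7 and 11) and 24 with MG132+4OHT (57.1% against 55.6%; 17 and 7). Among the largest changes were those of Mindy2 with 4OHT (-1.71 ± 0.21, adjusted p = 0.00023) and Otud7a with MG132 (2.07 ± 0.33, adjusted p = 0.00069). Both were dim, so the size of these changes is uncertain. Mindy2 was above background on 0 of 3 4OHT arrays (mean level -5.34) and Otud7a on 2 of 3 untreated arrays (-5.47). Psmd14, the deubiquitinase of the proteasome itself, rose with MG132 (0.76 ± 0.10, adjusted p = 0.00019).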

How the data were processed

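RNA of 12 samples of mouse embryonic stem cells (100 ng total RNA) was labelled with Cy3 and hybridised to 1-colour Agilent arrays, per the labels' protocols. The deposited values are spot intensities that the authors' scanner software, version 11.0.1.1 of Agilent Feature Extraction per the file headers, made and background-subtracted; the authors' series-wide values were identical (largest difference 0). Values were taken as log2 of the deposited intensity minus each array's 75th percentile (301.9 to 480.7 units). Of 62976 spots per array, 3671 control spots were left out, as were 1707 outlier spots over all arrays, and 0 were saturated. A probe entered the fit if every array of some group read it well above background, and the probe with the highest mean stood for its gene. Accessions were named through RefSeq.

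limma 3.58.1 in R 4.3.3 fitted 1 mean per group to all 12 arrays (residual degrees of freedom 8, prior 2.09); p-values were adjusted by Benjamini-Hochberg over 26836 genes. The method was tested on simulated data. The design text calls the replicates biological, but no label says that they were separate cultures, so p-values measure only the spread between these arrays. Alternatives were normexp correction (offset 50, on median spot signals, since the files hold no mean), quantile or median scaling, the probe filter, probe averaging, array weights, a variance trend, slide and replicate blocks, and leaving out each array.

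Named were the called members with the largest changes, up to 6 higher and 6 lower per comparison, members with a called difference of 4OHT responses or with disagreeing probes, and fixed members. Usp1, Usp33 and some others were named outside this rule, after their values were seen, to complete small counts. The members and lists were chosen with earlier results of these data known. Figures used matplotlib 3.10.9.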

Additional observations from a re-analysis of the deposited data

Results flagged for a closer look

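For 3 USP genes the response to 4OHT differed between cells with and without MG132, by the test of the difference itself in limma. For Usp2 the response was -0.66 with MG132 and 1.16 without it, a difference of -1.82 (adjusted p = 0.0038). For Usp28 it was -0.49 with MG132 and 0.17 without it, a difference of -0.66 (adjusted p = 0.012). For Usp49 it was -0.08 with MG132 and -1.41 without it, a difference of 1.33 (adjusted p = 0.034). The Usp49 probe was above background on 2 of 3 4OHT arrays. Its call was lost without any 1 of 8 arrays, with slide as a block and under normexp (0.28, adjusted p = 0.37). That of Usp28 was lost under median centring and with slide as a block. A second Usp2 probe gave a difference of -1.32 and was not called. The share of members called, 6.98%, was close to the 6.51% of all genes.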

How the results depend on the processing

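Over the alternatives other than leaving out an array, the called changes of members kept direction and call in 1061 of 1251 cases, lost the call in 187 and reversed in 3; on leaving out arrays these were 925, 119 and 0 of 1044. The reversals were Usp16 (-0.071), Usp3 (-0.12) and Usp30 (-0.024) for MG132+4OHT against untreated cells under median centring. Changes that were not called also turned round: Usp28 with 4OHT (-0.022, median centring), Usp13 with MG132 (0.0091 with slide as a fixed block, on slide 1 alone or without MG132 replicate 3, the top of a range from -0.16 on leaving out arrays, and 0.084 with replicate and slide blocks), and Usp2 for MG132+4OHT against 4OHT (0.16 with both blocks, 0.054 without 4OHT replicate 3, in a range from -0.28). For MG132+4OHT against untreated cells, so did Usp7 (0.052 with probes averaged, 0.089 with slide as a fixed block, 0.020 without MG132+4OHT replicate 3, in a range from -0.095) and Usp39 (0.016 with array weights, 0.011 with slide as a fixed block, 0.017 with both blocks, 0.0065 without untreated replicate 3, in a range from -0.092). Counts of called members moved by over 1.5 times as follows. MG132 against untreated cells gave 23 with median centring and 25 with array weights, against 15. MG132+4OHT against MG132 gave 6 with no filter, 20 with array weights, 6 with slide as a fixed block, 2 with both blocks and 1 on slide 2 alone, against 11. MG132+4OHT against 4OHT gave 12 with no filter, 5 with slide as a fixed block, 3 with both blocks and 11 with only the arrays compared, against 19. MG132+4OHT against untreated cells gave 9 with slide as a fixed block and 7 with both blocks, against 23. The difference of 4OHT responses gave 8 with array weights, 5 with an intensity trend and robust variance and 1 with slide as a fixed block, against 3. Leaving out each array gave 13 to 19, 12 to 22, 5 to 14, 14 to 22, 17 to 30 and 2 to 5 called members for 4OHT, MG132, MG132+4OHT against MG132, against 4OHT and against untreated cells, and the difference. The cause was not tested. Over all genes, the counts ranged from 5026 to 14552 for 4OHT, 2137 to 13797 for MG132+4OHT against MG132, 4816 to 14520 against 4OHT, 6045 to 19309 against untreated cells and 794 to 4510 for the difference, against 7656, 7030, 13387, 14914 and 1746. With the replicate number as a replicate block, 17, 16, 14, 24, 27 and 4 members were called in the same order. Arrays with the same number correlated at -0.06 to 0.41 in their deviations from group means (median -0.14 for different numbers). For number 3 all 6 pairs were over 0.1 (0.12 to 0.41), but not for numbers 1 (-0.06 to 0.16) and 2 (0.07 to 0.15), and 6 of 12 arrays correlated best with their own number, so the numbers were not taken to pair the arrays. Dim probes such as that of Usp49 limit what can be measured.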

Other observations

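Replicate 3 stood apart from replicates 1 and 2 in several members, a comparison chosen after seeing the data. In limma with a term for replicate 3 against the other replicates, 6 of 43 members were called (10.1% of all genes were), with Usp2 higher in replicate 3 (0.37) and Usp1 (-0.58), Usp11 (-0.56), Usp25 (-0.54), Usp20 (-0.52) and Usp44 (-0.34) lower. 4OHT replicate 1 was low for Usp42, at a level of 0.17 against 1.56 and 1.77 on the other 4OHT arrays. The same array was the lowest of its group for Usp40 (-1.16 against 0.07 and 0.31), Usp34 (0.47 against 1.06 and 1.21) and Usp36. Other members, such as Usp12 (2.74 against 2.40 and 2.37), were highest on it. It had the lowest 75th percentile (301.9 units) and the highest residual SD (0.446) of the arrays.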
